A study of Sus scrofa with 6 samples.

Results

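Plasmacytoid dendritic cells (pDC) and type 1 conventional dendritic cells (cDC1) from pig blood were compared through the 2 arrays labelled plasmacytoid DC and the 2 arrays labelled DC XCR1+, which are 4 of the 6 arrays given for the series. The other 2 arrays, labelled as XCR1- cells, hold cells sorted as candidates for type 2 conventional dendritic cells. They are called cDC2 after the sort alone and are shown only as a further level, and what cells they hold is not settled here: CD14 was a negative gate there too, yet CD14, CSF1R, and SIRPA, listed as monocyte markers, were brightest on these arrays. All cells came from the blood of pigs (Sus scrofa) of about 2 years that the series calls controls, with no treatment named. As pDC candidates, cells with CD4 and intermediate CD172 but without CD3 and CD14 were taken. As cDC1 candidates, large cells were taken that had no surface immunoglobulin, CD4 or CD14, carried MHC class II and CADM1, and had low CD172, so the 2 subsets were stained with different antibody panels. RNA was mixed across animals where a sort gave less than 50 ng, and the labels do not state which arrays are such pools. The array names carry a code that no source used here explains. It is longer for cDC1 replicate 2 than for the other pDC and cDC1 arrays, and pDC replicate 2 and cDC1 replicate 1 share theirs. The design text of the series names 3 pigs for pDC and 1 pig for the CADM1+ cells. Whether the 2 arrays of a subset come from separate animals is therefore not settled, and the p-values measure only the spread between these arrays. Each array was a custom 1-colour Agilent porcine array, and all 41901 gene probes with usable spots were taken as measurements. The test took in the 26372 probes that rose well above background on the pair of arrays of any 1 of the 3 subsets. The files name 27 probes, of 23 genes, by a gene symbol, and the biology is read from these.

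pDC and cDC1 are both dendritic cells but do different work. pDC recognise viral nucleic acids in endosomes through Toll-like receptors and release type I interferon, and their identity rests on the transcription factor TCF4 (E2-2). cDC1 take up dead cells and present their antigens to CD8 T cells, and depend on the transcription factors BATF3 and ID2. ID2 binds E proteins such as TCF4 and blocks them, so that high TCF4 and high ID2 are known as opposite states in this lineage. XCR1, the receptor of the chemokine XCL1, marks cDC1 across mammals.

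The probes that carry the comparison are 60 bases long and hybridize only the stretch they were designed on. Those of XCR1 and UNC93B1 are given whole, and those of TCF4, ID2, BATF3, and TNF by their first 30 bases, as the files write them from 5′ to 3′. The capitals in the BATF3 probe mark the 15 bases that it shares with the reverse complement of the reverse primer used for pig BATF3 in the study's real-time PCR.
XCR1: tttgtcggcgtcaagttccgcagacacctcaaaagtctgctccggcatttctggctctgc
UNC93B1: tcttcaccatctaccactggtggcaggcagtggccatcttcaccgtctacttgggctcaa
TCF4: aatcgcagacgcaagaggtttcagcattcc
ID2: cctgctttatttcagaggaccagtgctttg
BATF3: AGAATCATGTCCTCCagagaatggataata
TNF: tctaaataatgctgatttggtgactaactt

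Levels are log2 signals minus the 75th percentile of the same array, so that 0 is the brightness that 75% of the gene spots of an array stay below. No gene spot was saturated. On the pDC and cDC1 arrays, 54.3% to 64.1% of the gene spots were well above background in the scanner software's own call, the lowest share being that of cDC1 replicate 2. The pDC arrays were less alike than the cDC1 arrays. Over the 26372 tested probes, the median gap between replicates was 0.47 in pDC and 0.24 in cDC1 on the log2 scale. At least 2-fold apart were 4523 probes between the pDC arrays and 2058 between the cDC1 arrays.

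The transcription factors separated the subsets in both directions. TCF4, the E protein that maintains pDC, was at 7.21 and 6.96 in pDC and at 4.06 and 4.46 in cDC1. Both pDC arrays lay above both cDC1 arrays, as for 33.8% of all probes tested, and the cDC2 arrays, at 4.23 and 4.14, lay within the range of cDC1. The difference was 7.08-fold (log2 difference 2.82 with a standard error of 0.26, and adjusted p = 0.000933 by limma). ID2, the inhibitor of E proteins, ran the other way, with 1.63 and 2.01 in pDC and 6.33 and 5.97 in cDC1. It was 20.1-fold higher in cDC1 (log2 difference -4.33 with a standard error of 0.26, and adjusted p = 0.000294 by limma), and cDC2 lay between the subsets at 3.35 and 3.33. BATF3, which cDC1 need to develop, was at -1.11 and 0.41 in pDC and at 7.81 and 7.77 in cDC1, with cDC2 between them at 4.23 and 3.68. The cDC1 arrays differed by only 0.039 while the pDC arrays differed by 1.51, so the size of this difference rests on the pDC arrays. The fold was 282 (log2 difference -8.14 with a standard error of 0.51, and adjusted p = 0.000303 by limma), 167 without pDC replicate 1, and 476 without pDC replicate 2. As these are bulk samples, fewer cells that express a gene and less of its RNA per cell cannot be told apart.

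**Figure D1:**
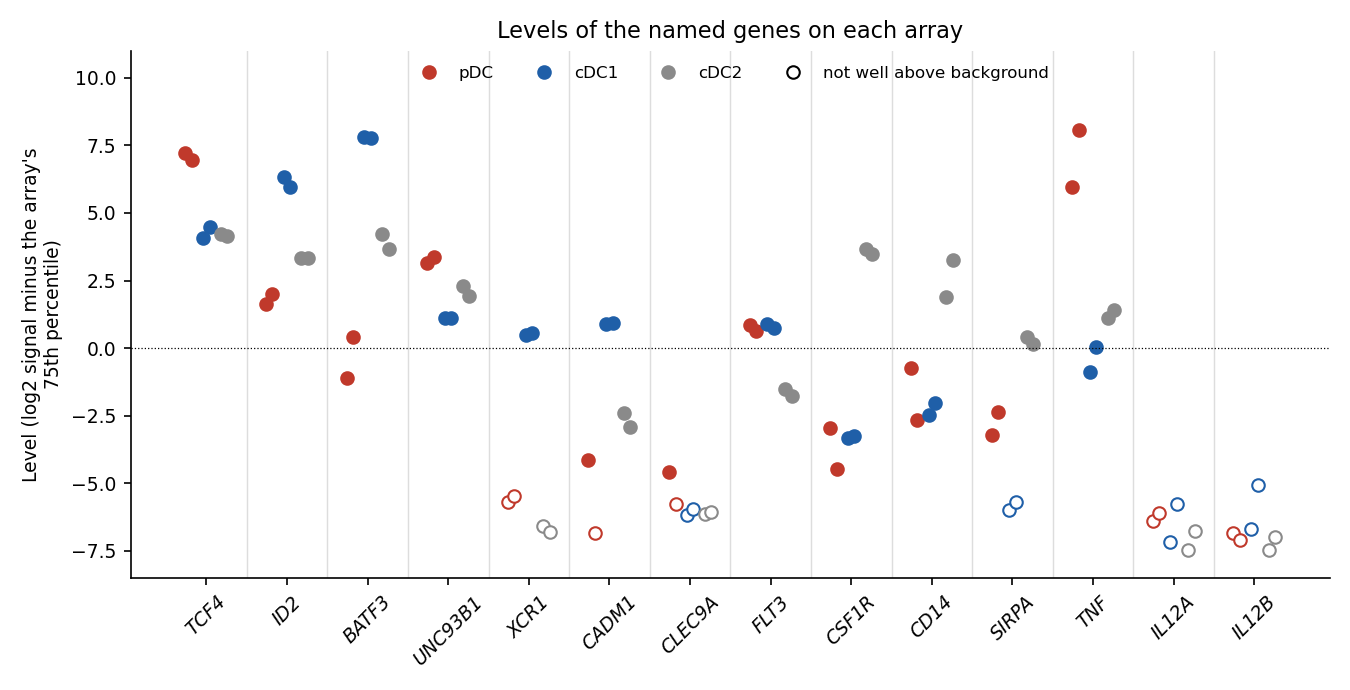
Level of the 14 genes named by a positive probe on each of the 6 arrays (y axis, log2 signal minus the 75th percentile of the array), with 1 point per array and open points where the probe was not well above background. Between pDC and cDC1, TCF4, UNC93B1, SIRPA, and TNF are higher on both pDC arrays, BATF3, ID2, XCR1, and CADM1 on both cDC1 arrays, and FLT3 is at 0.64 to 0.90 on all 4, while SIRPA is highest in cDC2.

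UNC93B1 carries the nucleic acid-sensing Toll-like receptors from the endoplasmic reticulum to endosomes. Its levels were 3.13 and 3.35 in pDC and 1.13 and 1.10 in cDC1, with cDC2 between them at 2.31 and 1.92. The gap between replicates was 0.22 in pDC and 0.026 in cDC1, far below the difference of 4.36-fold (log2 difference 2.13 with a standard error of 0.25, and adjusted p = 0.00234 by limma). A block for the scan day left the log2 difference at 2.11 but no longer past the threshold (adjusted p = 0.0687 by limma). It is the only gene of the list of endosomal nucleic acid sensing that the files name, out of 10, so TLR7, TLR9, IRF7, and the other members were not read here.

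On the cDC1 side, XCR1 gave -5.68 and -5.49 in pDC, where neither array was well above background, and 0.47 and 0.54 in cDC1. Like pDC, cDC2 was not well above background, at -6.58 and -6.78. A probe at background has only a bound, for which the mean of cDC1 is set against the higher of the probe's own signal and the lowest signal well above background on each pDC array. Under the main setting, XCR1 was at least 44.6-fold higher in cDC1, a bound that holds for that setting only. It entered the test through cDC1 alone and its adjusted p of 0.000201 by limma is computed from background readings in pDC, so this p is given as a description. The size varied with the processing. The fitted log2 difference was -6.09 here, -2.60 after normexp background correction, and -4.47 in the authors' log2 table, past the threshold in each. Which step of the processing moved it was not tested. CADM1, an adhesion molecule that was itself used to sort cDC1, has a pair of probes on the array. The brighter was at -4.14 and -6.85 in pDC, well above background on the former only, and at 0.91 and 0.93 in cDC1. It was thus at least 44.7-fold higher in cDC1 under the main setting, with 1 of the 2 pDC arrays above background. Against that pDC array alone, which leaves out pDC replicate 2, the fold was 33.4. Over all arrays the fitted log2 difference was -6.41, against -2.99 with normexp background correction and -4.94 in the authors' log2 table. As the sort set the direction and 1 pDC reading was at background, the adjusted p of 0.00288 by limma is given as a description. The other CADM1 probe, which was dimmer, was at -7.13 and -6.99 in pDC, both at background, and at -1.10 and -0.90 in cDC1. Under the main setting it was at least 15.8-fold brighter in cDC1. It too entered the test through cDC1 alone, on cells sorted by CADM1, and its adjusted p of 0.000201 by limma is likewise a description. CLEC9A, the cDC1 receptor for dead cells, was not tested. Its probe was at -6.17 and -5.96 on the cDC1 arrays, not well above background on either, and at -4.58 and -5.78 on the pDC arrays, of which the former was above background. With its single probe at background on 5 of the 6 arrays, CLEC9A could not be read as a marker here. Of the other cDC1 markers, BATF3, ID2, and XCR1 were higher on the cDC1 arrays, while the direction of CADM1 was set by the sort.

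FLT3, the receptor whose ligand drives the development of both subsets, did not separate them. It was at 0.86 and 0.64 in pDC and at 0.90 and 0.73 in cDC1, so that the arrays of the subsets overlapped, while cDC2 was lower at -1.50 and -1.76. The log2 difference was -0.066 with a 95% interval of -0.66 to 0.53 (adjusted p = 0.858 by limma), which leaves room for a difference of up to 0.66 in favour of cDC1. CSF1R, the receptor of macrophage colony-stimulating factor, was at -2.95 and -4.48 in pDC and at -3.32 and -3.25 in cDC1, with cDC2 far brighter at 3.68 and 3.48. The 2 pDC arrays lay on either side of cDC1, and the log2 difference was -0.43 with a 95% interval of -1.62 to 0.76 (adjusted p = 0.543 by limma).

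Of 10 monocyte markers listed, the files name CSF1R, CD14, and SIRPA. CD14, a co-receptor for bacterial lipopolysaccharide and a negative gate in both sorts, was at -0.73 and -2.66 in pDC and at -2.47 and -2.03 in cDC1, all well above background, against 1.90 and 3.26 in cDC2. The log2 difference was 0.56 with a 95% interval of -1.18 to 2.30 (adjusted p = 0.591 by limma). The pDC arrays were 3.79-fold apart for CD14 and 2.88-fold apart for CSF1R, with pDC replicate 1 higher in both. Summed over these 3 genes on the linear scale, the level was -0.25 and -1.32 for pDC, -1.76 and -1.44 for cDC1, and 4.16 and 4.45 for cDC2. All 3 were well above background on both pDC arrays, and the part of other cells in the pDC signals was not tested. No gene of the marker lists for B cells, T cells, NK cells, neutrophils, platelets, or red cells carries a symbol in the files, so these cells were not measured by name.

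SIRPA encodes CD172A, on which both sorts were gated. Its named probe was at -3.21 and -2.35 in pDC and at -6.00 and -5.68 in cDC1, with both cDC1 arrays at background and cDC2 highest at 0.39 and 0.13. Under the main setting, the level was at least 4.18-fold higher in pDC, a bound that holds for that setting only. The gates, intermediate CD172 for pDC and low CD172 for cDC1, set this direction, and the adjusted p of 0.002 by limma, computed from background readings in cDC1, is given as a description. Here too the size varied with the processing, as the fitted log2 difference was 3.06, against 0.73 after normexp and 1.94 in the authors' log2 table. A commercial probe whose first 33 bases are the last 33 of the named one gave a smaller difference. It was at 1.70 and 2.47 in pDC, 0.70 and 0.72 in cDC1, and 2.76 and 2.81 in cDC2, well above background on all 6 arrays, and 2.59-fold higher in pDC (log2 difference 1.37 with a standard error of 0.31, and adjusted p = 0.0209 by limma). Both probes put the subsets in the order cDC2, pDC, and cDC1 from high to low. The size of the gap differed between the probes and, for the named one, between ways of processing.

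Among cytokines, TNF, which drives inflammation, was at 5.97 and 8.09 in pDC and at -0.89 and 0.06 in cDC1, with cDC2 at 1.10 and 1.41. Both pDC arrays were far above all others, but they were 4.34-fold apart from each other. The fold between pDC and cDC1 was 174 (log2 difference 7.45 with a standard error of 0.70, and adjusted p = 0.00107 by limma), 83.7 without pDC replicate 2, and 363 without pDC replicate 1. IL12A and IL12B, the subunits of interleukin 12, were not well above background on any of the 6 arrays and were not tested. IL12A ranged from -7.18 to -5.75 over the 4 arrays and IL12B from -7.10 to -5.07, with overlap between the subsets for IL12A.

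Of the 14 genes with a positive probe, 11 were tested, and 4 were higher in pDC, 4 were higher in cDC1, and 3 did not pass the threshold. Without SIRPA and CADM1, whose directions the sort set, and XCR1, which entered the test through cDC1 alone, 8 remained, of which TCF4, UNC93B1, and TNF were higher in pDC and BATF3 and ID2 in cDC1. The study had checked TCF4, BATF3, XCR1, FLT3, and CD14 by real-time PCR in sorted candidates before the arrays, as a quality control. The directions of TCF4 and BATF3 are therefore not independent of how the subsets were accepted. Over all probes tested, the share past the threshold was 28.8%, with 13.6% higher in pDC (3590 probes) and 15.2% higher in cDC1 (4007 probes). Of the 3590, 481 were well above background on both pDC arrays and neither cDC1 array, and of the 4007, 529 were the reverse. Their p-values are computed from background readings in the lower subset. Another 37 were well above background on none of the 4 arrays and entered the test through cDC2 alone. Which direction held more probes depended on the scaling, as median scaling gave 3786 higher in pDC and 3545 higher in cDC1. The count of 7597 behind the share fell to 4067 without cDC1 replicate 1, to 3965 without cDC1 replicate 2, and to 1982 with the scan day as a block. Genes of interest in dendritic cells were put on this array by design, so the higher share among them is not an independent result. From the list of 24 genes for pDC identity, TCF4 and UNC93B1 were named and tested, both higher in pDC. The list of 19 genes for cDC1 identity has 6 named members, of which 5 were tested and 4 were higher in cDC1, with a median log2 difference of -6.09 against 0.031 over all probes tested. That median is the value of XCR1, which was at background in pDC. With such genes at their bounds the median was -5.48, and it was -2.99 with normexp background correction and -4.47 in the authors' log2 table. The median rests on XCR1 and on CADM1, the marker of the sort, so it is no independent support for the label. FLT3 is the member that did not pass, and CLEC9A the one not tested. In the list of 15 cytokines and chemokines 3 were named, and in that of 8 genes for MHC class II presentation 0 were named. Of 7 growth factor and cytokine receptors FLT3 and CSF1R were named, and neither passed the threshold.

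Another 12 probes, of 9 genes, carry a name that marks them as negative. ESR1, ESR2, MAEL, SPO11, and CYP26B1, genes of steroid receptors, germ cells, and retinoic acid breakdown, were not well above background on any array. FOXO3, a forkhead transcription factor that many tissues express, was well above background on all 6 arrays with both of its probes. The brighter was at 3.81 and 4.09 in pDC and at 3.37 and 3.05 in cDC1 and did not pass the threshold (log2 difference 0.74 with a standard error of 0.26, and adjusted p = 0.084 by limma), and the dimmer, at 0.56 and 0.46 against -0.27 and -0.27, passed narrowly (log2 difference 0.78 with a standard error of 0.23, and adjusted p = 0.0474 by limma). DMC1, a recombinase of meiosis, was uneven in cDC1, at -2.86 and -4.16 with its brighter probe, of which the latter was not well above background, and that probe read -4.64 and -5.41 in pDC. Its other probe was at -2.59 and -5.24 in cDC1 and at -7.08 and -7.05 in pDC, so both probes were highest on cDC1 replicate 1. The brighter DMC1 probe was not past the threshold (adjusted p = 0.0739 by limma). STRA8, which starts meiosis, was at -5.04 and -4.15 in pDC and at -6.65 and -5.93 in cDC1 and was well above background on 1 pDC array only. NOBOX, an oocyte factor, was at -4.15 and -3.82 against -4.14 and -4.34, with cDC1 replicate 2 not well above background, and did not pass the threshold (adjusted p = 0.497 by limma).

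The array prints some sequences more than once, which gives the technical spread of these values. Each named probe was printed as 5 spots per array, of which 5 were kept for 17 probes and 4 for the other 10, and where it was well above background the SD over its spots was 0.061 at the median on the log2 scale. For 9 tested genes, other probes with the same 60 bases lie elsewhere on the array. These 12 probes gave a difference between pDC and cDC1 that lay within 0.22 of that of the named probe, with a median gap of 0.055. For BATF3 the second copy read -8.11 against -8.14, for TNF 7.46 against 7.45, and for TCF4 2.87 against 2.82. Over the whole array, 148 pairs of probes of identical sequence were well above background on all 4 arrays, and their differences lay 0.039 apart at the median, 0.14 at the 90th percentile, and 0.54 at most.

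**Figure D2:**
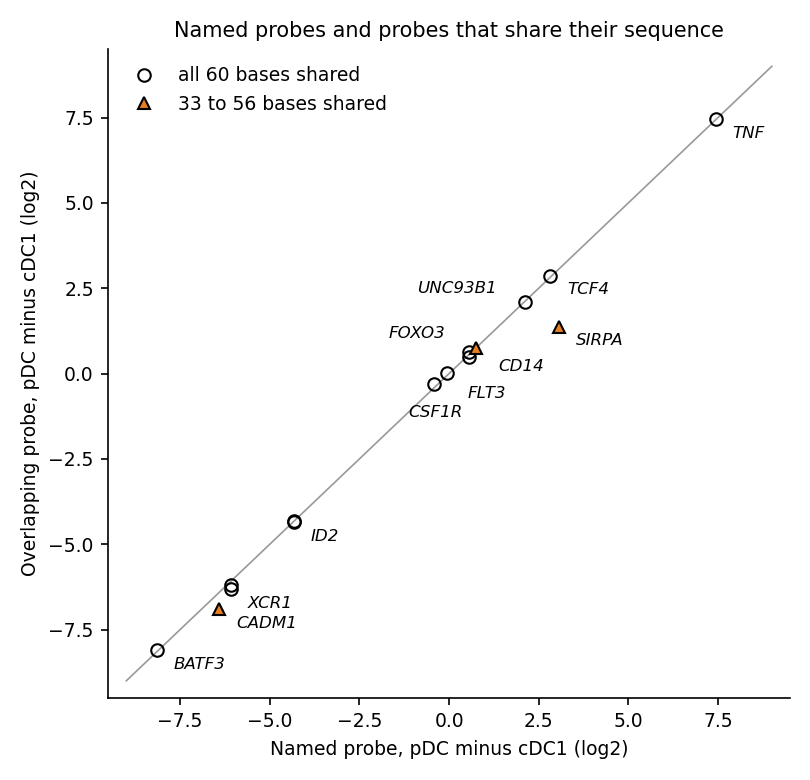
Difference between pDC and cDC1 (log2) of the named probes (x axis) against that of other probes sharing 33 to 60 of their bases (y axis), 1 point per pair of probes, with the line of equal values. Among tested pairs, the copies with the same 60 bases lie on the line within 0.22. The SIRPA pair, which shares 33 bases, lies furthest from it at 3.06 against 1.37.

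Across all probes, the 7597 that passed the threshold were spread over the range of brightness. With the tested probes split by mean level into 4 bins of equal size, from dim to bright, 29.0%, 28.9%, 31.0%, and 26.3% passed. The median standard error fell from 0.38 in the dimmest bin to 0.27 in the brightest, and the median size of the log2 difference from 0.78 to 0.52. Among the 21165 probes well above background on all 4 arrays, 5564 passed the threshold, 2597 higher in pDC and 2967 higher in cDC1. At least 4-fold differences were found for 1848 of these, and at least 16-fold differences for 353, with 152 higher in pDC and 201 higher in cDC1. At 128-fold or more, 12 were higher in pDC, TNF among them, and 10 were higher in cDC1, with BATF3 among them. When the lowest array of a subset was required to exceed the highest of the other by at least 1.5-fold, the Min (test) vs. Max (ref) rule, which has no p-value, 8427 probes (32.0%) were separated, 4009 (15.2%) with pDC and 4418 (16.8%) with cDC1 on the higher side, against 4262 and 3909 with median scaling. With normexp background correction the rule separated only 5149, with 2424 higher in pDC and 2725 higher in cDC1.

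**Figure D3:**
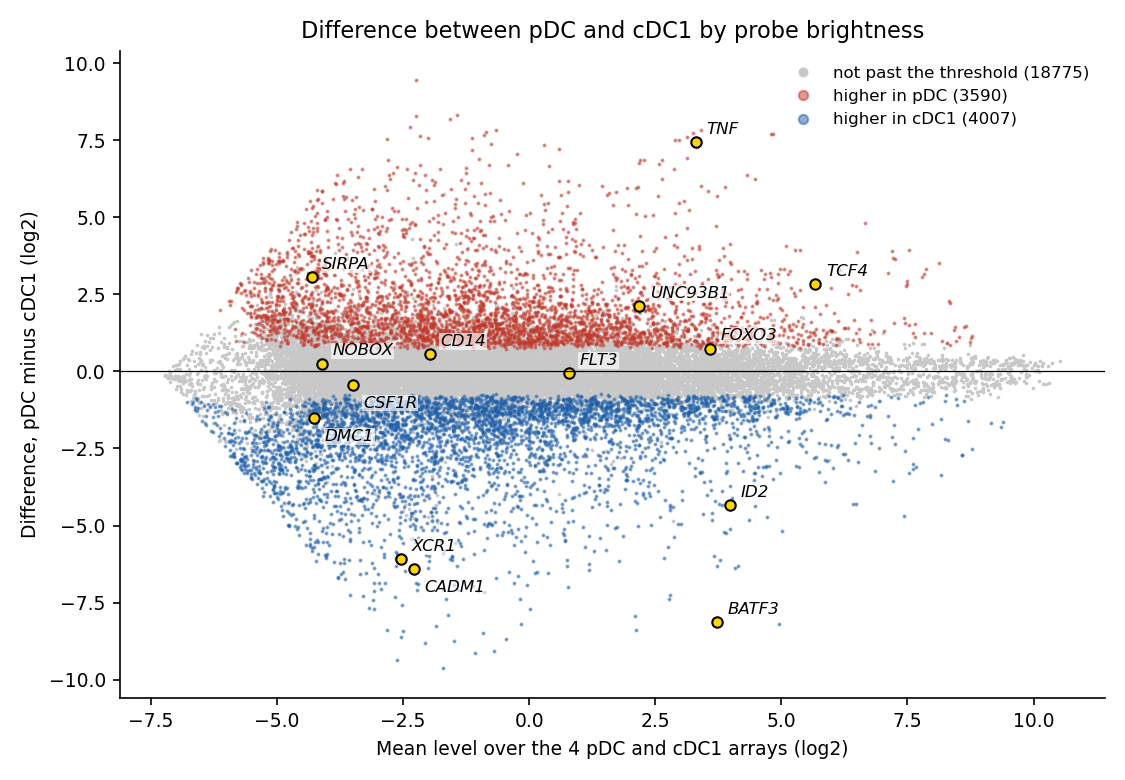
Difference between pDC and cDC1 (y axis, log2) against the mean level over the 4 arrays (x axis, log2) for the 26372 probes tested, coloured where limma passed an adjusted p of 0.05, with the 14 tested named genes as gold points. BATF3 at -8.14 and TNF at 7.45 lie near the edges of the cloud, and FLT3 at -0.066 lies on the zero line.

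**Figure D4:**
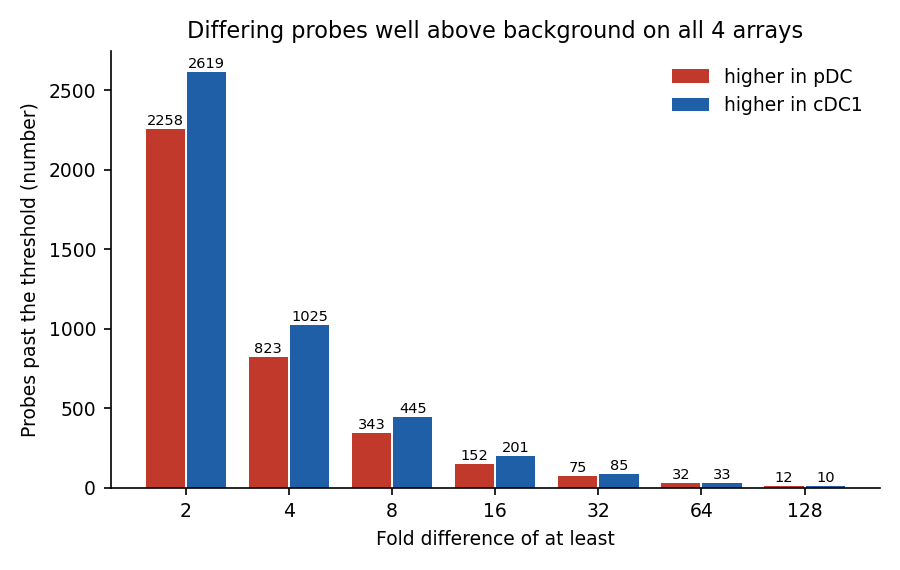
Number of probes past the threshold (y axis) with a difference of at least the fold given (x axis), among the 21165 probes well above background on all 4 arrays. At 4-fold there are 823 higher in pDC and 1025 higher in cDC1, and at 128-fold 12 and 10.

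Some probes were at background on both arrays of 1 subset by the scanner software's call. The lowest level so called well above background differed by array, from -5.52 on cDC1 replicate 1 to -4.18 on cDC1 replicate 2. Well above background on both pDC arrays and neither cDC1 array were 640 of the 41901 probes, and the reverse held for 583, XCR1 among them. Of the 640, 481 passed the threshold, and of the 583, 529 did. Under the main setting, a bound of at least 4-fold could be given for 190 of the 640 and 285 of the 583. The largest bounds were 191-fold for pDC and 272-fold for cDC1. In both sets of probes past the threshold, the mean of cDC2 was more often nearer to cDC1 than to pDC. The same shares over all probes tested are not given here. Among the 3590 probes higher in pDC, the mean of cDC2 was nearer to cDC1 than to pDC for 2709 (75.5%), as for TCF4. Among the 4007 higher in cDC1, it was nearer to pDC for 1274 (31.8%), as for XCR1, and nearer to cDC1 for the rest. The probes of the pDC set had both cDC2 arrays below both pDC arrays in 3067 cases (85.4%), and those of the cDC1 set had both cDC2 arrays below both cDC1 arrays in 2301 cases (57.4%).

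The largest differences among probes well above background on all 4 arrays lie on commercial probes for which the files give no gene. The first 30 bases of these 4 probes are given so that they can be traced, and the capitals mark the 17 bases that A_72_P225652 shares with the forward primer used for pig BATF3 in the study's real-time PCR.
A_72_P146471: ataaggaatgaaagtgccatggagtgaagg
A_72_P741554: ccaggttgaaaggaatgaaagtgccatgga
A_72_P177411: ccttttccataaagaccctgaacctgagaa
A_72_P225652: GCATCACTGTGCATCCActttggcagctag
A_72_P146471 was at 6.48 and 8.18 in pDC and at -0.86 and -0.16 in cDC1. A_72_P741554 was at 6.22 and 8.02 in pDC and at -0.97 and -0.27 in cDC1. These 2 probes share 51 bases and are therefore not separate measurements of 2 transcripts, and on both, pDC replicate 2 was the higher array, as for TNF. A_72_P177411 was at -3.22 and -0.95 in pDC and at 6.36 and 6.25 in cDC1, with cDC2 low at -3.44 and -2.90. A_72_P225652 was at -0.084 and 1.82 in pDC, at 9.04 and 9.07 in cDC1, and between them in cDC2 at 5.52 and 5.07. Besides the primer's bases at its start, its last 12 bases are the first 12 of the BATF3 probe, so it is not counted as a transcript apart from BATF3. In pDC, replicate 2 was the higher array on both of these cDC1-high probes.

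By kind of probe, 7487 of 26148 tested commercial probes (28.6%) and 100 of 208 tested custom probes that carry a human gene identifier (48.1%) passed the threshold. Of these 100, 34 were higher in pDC and 66 were higher in cDC1. Their median size of difference was 1.04 against 0.63 for the commercial probes on the log2 scale. In the study's methods, custom probes, orthologs of dendritic cell genes among them, replaced commercial ones, and some are copies of the named probes, so this share is not an independent result either. The base composition was alike in both directions, with a median GC content of 41.7% in the probes higher in pDC and 40.0% in those higher in cDC1, against 41.7% over all tested.

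The 4 arrays lay on 3 slides and were scanned on 2 days, as the file headers give them. Slide 2 held pDC replicate 2 and cDC1 replicate 1. Within that slide, TCF4 differed by 2.90, UNC93B1 by 2.22, and TNF by 8.98 with pDC higher, and BATF3 by -7.40 and ID2 by -4.32 with cDC1 higher. The pDC arrays and cDC1 replicate 1 were scanned on 1 day, and the differences among those 3 arrays were 3.02 for TCF4, 2.11 for UNC93B1, 7.92 for TNF, -8.16 for BATF3, and -4.51 for ID2. The arrays of the subsets do not overlap for these 5 genes, as for 66.5% of all probes tested. Their direction within a slide or a day was therefore fixed. Within the slide, with 1 array on each side, there is no test. The differences within the day are also the estimates of limma with the scan day as a block, which has 1 residual degree of freedom, and its adjusted p was 0.0263 for TCF4, 0.0687 for UNC93B1, 0.0107 for TNF, 0.00719 for BATF3, and 0.0107 for ID2. The names of the arrays also carry a code that no source used here explains, and pDC replicate 2 and cDC1 replicate 1, on slide 2, share theirs with cDC2 replicate 1. In the deposited values, 3589 of the 3590 probes higher in pDC and 4003 of the 4007 higher in cDC1 had the same direction. These values come from the same arrays on which the probes were chosen, so this is no separate test of direction.

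**Figure D5:**
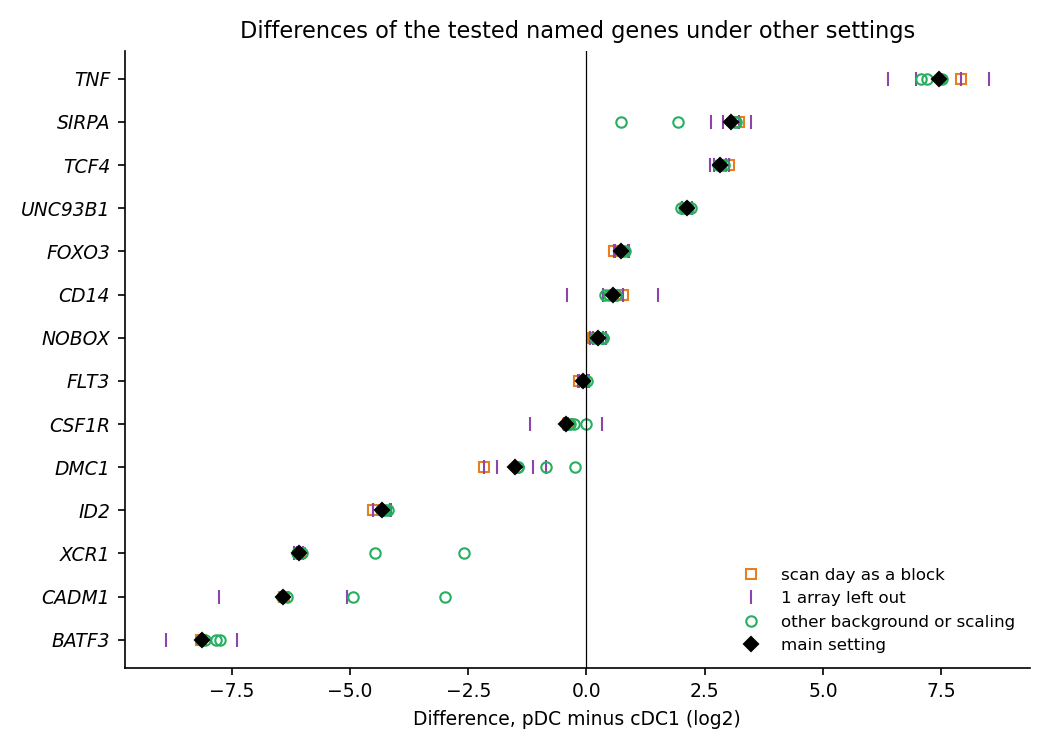
Difference between pDC and cDC1 (x axis, log2) of the 14 tested named genes under the main setting, 4 other background corrections or scalings, the scan day as a block, and with 1 array left out. TCF4, UNC93B1, and ID2 stay close to 1 value, XCR1, CADM1, SIRPA, and DMC1 shrink with normexp background correction and in the deposited values, and CD14, CSF1R, and FLT3 lie on both sides of zero.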

How the data were processed

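The authors hybridized Cy3-labelled complementary RNA (600 ng, from 50 ng of RNA) of sorted pig blood subsets and extracted the images with Feature Extraction 10.7.3.1. They deposited the spot intensities of each array on a linear scale and a table of normalized log2 values for 11 arrays, of which 6 columns were used and 5, of other subsets, were not. How the log2 table was scaled is not given in the sources used here, and when each column is sorted, the gap between the highest and the lowest column at a rank is 0.00014 at the median over ranks. Each array held 42018 gene spots. Processed intensities were taken as log2 and scaled by subtracting each array's 75th percentile, leaving out 1417 control spots and 19 spots with an outlier flag, and spots of a probe were averaged. Differences were tested with limma 3.58.1 in R 4.3.3 over all 6 arrays, 1 coefficient per subset, with Benjamini-Hochberg adjustment at 0.05 over 26372 probes. Precision is limited by how few arrays there are, which leaves 3 residual degrees of freedom. Simulated data were used to test the fit. Python 3.11.15 did the rest.

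The genes named are all those with a symbol in the scanner files, by their brightest probe, and the 2 unnamed probes of largest difference in each direction. These members and the gene lists were chosen with earlier results of these data known. A probe counted as well above background on an array if at least 50% of its spots were. Shortened pig identifiers in the probe names matched a gene table for 16 of 27 named probes, all 16 with the same symbol. Results were recomputed with quantile normalization, with scaling by the median, with normexp background (offset 50), on the deposited values, on all 41901 probes, with a trended prior, with the slide as a random block, with the scan day or the replicate number as a fixed block, on the 4 arrays alone, with a 2-fold minimum, with the mean of a gene's probes, and without each array. A random block for an unexplained code in the array names was added after seeing the data. Genome positions are not given, as the sources used here name no build.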

Additional observations from a re-analysis of the deposited data

How the results depend on the processing

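The 8 named genes past the threshold kept their direction under the 11 alternatives that give another estimate. For these genes the arrays of the subsets do not overlap, as for 66.5% of all probes tested. Leaving out an array or blocking by scan day therefore could not turn the direction. The sort had also set the direction of CADM1 and SIRPA. Another 6 alternatives leave the estimate as it is and change only its error or adjusted p, and 3 of these (the 4 arrays alone and without either cDC2 array) are the same fit. The calls held under all of these except for UNC93B1, which lost its call with the scan day as a block (adjusted p = 0.0687). Of 240 values of named genes under an alternative, 5 changed sign, all of them in genes not past the threshold. FLT3 was 0.012 with median scaling. With an array left out, FLT3 ran from -0.18 to 0.046, CD14 from -0.40 without pDC replicate 1 to 1.52 without pDC replicate 2, and CSF1R from -1.19 without pDC replicate 1, where it passed (adjusted p = 0.0196), to 0.33 without pDC replicate 2. FOXO3 and DMC1 passed under 3 alternatives each, among them normexp background for FOXO3 (adjusted p = 0.0294) and the replicate block for DMC1 (adjusted p = 0.0165). The count of 7597 probes became 4373 with no filter, where 41901 probes share the adjustment and the prior was estimated anew. What each of these changes did was not tested. With the scan day as a block, which leaves 1 residual degree of freedom, the count was 1982. With an array left out the count ran from 3965 to 8976, and was 4067 without cDC1 replicate 1 and 3965 without cDC1 replicate 2. Under the remaining alternatives it ran from 5261 with only the 4 arrays to 8434 with the slide as a random block. With the code in the array names as a random block, chosen after seeing the data, it was 8142. The count by the Min vs. Max ratio was 5149 with normexp background correction and 10331 to 12681 with an array left out, where a lone array sets the limit of its subset.

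Replicate numbers did not pair the pDC arrays with the others. Deviations from the subset mean of the pDC arrays correlated at 0.043 with those of cDC1 and at 0.089 with those of cDC2. The cDC1 and cDC2 deviations correlated at 0.27, and the replicate block gave 7543 probes. XCR1, CADM1, SIRPA, and DMC1 were each not well above background on some pDC or cDC1 array. Their differences were smaller with normexp background correction and in the deposited values. NOBOX, not well above background on cDC1 replicate 2, was at 0.25, at 0.18 with normexp, and at 0.34 in the deposited values. CSF1R, well above background on all 6 arrays, was at -0.43, -0.010, and -0.27 in the same order. Normexp was run with an offset, and its effect was not separated from that of the background correction. The cause of the smaller differences was not tested.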
